A study of Homo sapiens with 12 samples.

Results

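Metallothioneins are small cysteine-rich proteins that bind zinc and copper, and this account covers 7 human genes of the zinc response: the metallothioneins MT2A, MT1X, MT1G, MT1F and MT1E, the transcription factor gene MTF1 and the zinc exporter gene SLC30A1. They were chosen by gene symbol, as all rows of the deposited expression files that carry one of these symbols, and all 7 were found among 20003 genes. mRNA sequencing was done in NB4, an acute promyelocytic leukemia cell line with the PML-RARα fusion, and in Kasumi-1, an acute myeloid leukemia line with AML1-ETO. Each line was given either DMSO (control) or the small molecule OGP46 at 1 µM. The incubation was 48 h by the sample labels, whereas the legend of a figure in the study gives a longer time. Each of the 4 groups has 3 libraries, and each line is a single established cell line. The study's legend speaks of independent experiments, without tying a library to one, and nothing in the labels says that the libraries came from separate cultures, so p-values measure the spread between these libraries, which may be technical.

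When free zinc rises in a cell, the zinc finger protein MTF1 binds metal response elements in the promoters of metallothionein genes and of SLC30A1 and raises their transcription. Metallothioneins then hold the metal in the cytoplasm, and SLC30A1 (ZnT1) moves zinc out across the plasma membrane. In myeloid cells these genes are known as readouts of metal load, and they also respond to glucocorticoids and oxidants.

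Summed FPKM (fragments per kilobase of transcript, scaled to the mapped fragments of the library) were 248207 to 310262 per library, and 9339 to 9746 genes reached 1 FPKM. In NB4 the sums did not overlap between groups, with 248207 to 256268 in control and 263341 to 291523 with OGP46. The part of these sums in the differences below was not tested. Depth in reads is unknown, since the files hold no counts. CD34 and KIT, which mark Kasumi-1, were between 91.4 and 145 FPKM in every Kasumi-1 library and at most 1.31 FPKM in NB4, with the highest CD34 value in NB4 control 3. TRH, of the same list of 5 markers, went from 36.9 ± 1.76 FPKM in Kasumi-1 control to 20.7 ± 1.88 FPKM with OGP46 (SD, n = 3). It was the 1 marker of this list called lower with OGP46 in Kasumi-1 without the block, beside 0.0169% of all genes. The 5 granule protein genes listed for NB4 were detected there but were higher in Kasumi-1 control (5 of 5 called lower in NB4), so they do not set NB4 apart. Of 6 genes of other cell types, EPCAM alone reached 1 FPKM, with 40.3 to 56.0 FPKM in Kasumi-1 and 2.95 to 6.86 FPKM in NB4.

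Promoter sequences are shown first, because MTF1 is known to act through metal response elements. RefSeq promoters (GRCh38.p14) were matched for 4 of the 7 genes, MT2A, MT1X, MTF1 and SLC30A1, and for 3 of the 8 other metallothionein genes, MT1B, MT1H and MT4. The 250 bases before the annotated start were searched on both strands for the core TGCACNC and its variant TGCGCNC, with matches on opposite strands counted separately where they overlap. The sequences below run 5′ to 3′ on the gene's strand, with matches in capitals. MT2A (chr16:56608334-56608583, plus strand) and MT1X (chr16:56682220-56682469, plus strand) are shown as the most abundant metallothioneins, SLC30A1 (chr1:211579162-211579411, minus strand) as the exporter, and MT1H (chr16:56669564-56669813, plus strand) as a metallothionein listed at 0 in all 12 libraries.
MT2A: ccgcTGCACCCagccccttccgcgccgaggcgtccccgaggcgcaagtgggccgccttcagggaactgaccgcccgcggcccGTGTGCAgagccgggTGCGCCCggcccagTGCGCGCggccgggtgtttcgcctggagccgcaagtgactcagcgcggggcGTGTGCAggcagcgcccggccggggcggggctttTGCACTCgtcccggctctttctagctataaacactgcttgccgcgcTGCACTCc
MT1X: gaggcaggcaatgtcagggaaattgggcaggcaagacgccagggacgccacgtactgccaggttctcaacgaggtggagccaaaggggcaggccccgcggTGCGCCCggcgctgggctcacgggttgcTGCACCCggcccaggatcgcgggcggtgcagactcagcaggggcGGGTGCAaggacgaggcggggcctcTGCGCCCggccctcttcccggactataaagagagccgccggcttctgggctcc
SLC30A1: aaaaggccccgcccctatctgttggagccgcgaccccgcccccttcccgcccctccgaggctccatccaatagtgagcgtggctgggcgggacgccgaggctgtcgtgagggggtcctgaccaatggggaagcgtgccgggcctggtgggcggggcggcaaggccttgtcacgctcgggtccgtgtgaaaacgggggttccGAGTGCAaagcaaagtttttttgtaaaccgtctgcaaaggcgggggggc
MT1H: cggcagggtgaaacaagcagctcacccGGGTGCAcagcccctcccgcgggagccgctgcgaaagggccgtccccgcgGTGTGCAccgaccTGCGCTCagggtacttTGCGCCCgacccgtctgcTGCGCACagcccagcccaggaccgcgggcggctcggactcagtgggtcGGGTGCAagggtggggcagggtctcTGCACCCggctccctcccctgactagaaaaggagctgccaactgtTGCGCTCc

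The MT2A window held 7 matches, 5 of them on the gene's strand. At least 7 matches were found in 11 of 35116 promoters (0.0313%). The MT2A window was 73.2% G and C, and the shares given here are over all promoters, whatever their base composition. The MT1X window held 4, a number reached by 130 promoters (0.370%). SLC30A1 held 1 match, a count that 24.8% of all promoters reached, and the MTF1 window held 0. MT1H had 8 matches, a count reached by 6 promoters (0.0171%), although its transcript was not detected. MT1B and MT4, also listed at 0, had 3 matches each. A match describes letters only and is not a bound site.

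The 5 metallothioneins named above lie in the metallothionein cluster of chromosome 16. By RefSeq on GRCh38.p14, the build that the submitters' hg38 label names, MT2A spans chr16:56608584-56609497, MT1E chr16:56625781-56627112, MT1F chr16:56657959-56659303, MT1G chr16:56666730-56668065 and MT1X chr16:56682470-56684196. MT1G is the one of these on the minus strand. MTF1 (chr1:37809574-37859592) and SLC30A1 (chr1:211571568-211579161) lie on the minus strand of chromosome 1. The 12 listed metallothionein genes of the chromosome 16 cluster cover 119 kb from MT4 to MT1X. Genes with and without signal were interspersed along it. MT1M, MT1A and MT1B, listed at 0, lie between MT1E and MT1F, and MT1H, also at 0, lies between MT1G and MT1X. Outside this cluster, MT1HL1 of chromosome 1 was listed at 0 as well. In all, 7 of the 8 other metallothionein genes were in the files and all 7 were at 0 in all 12 libraries, and MT1L was not analysed here.

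**Figure D1:**
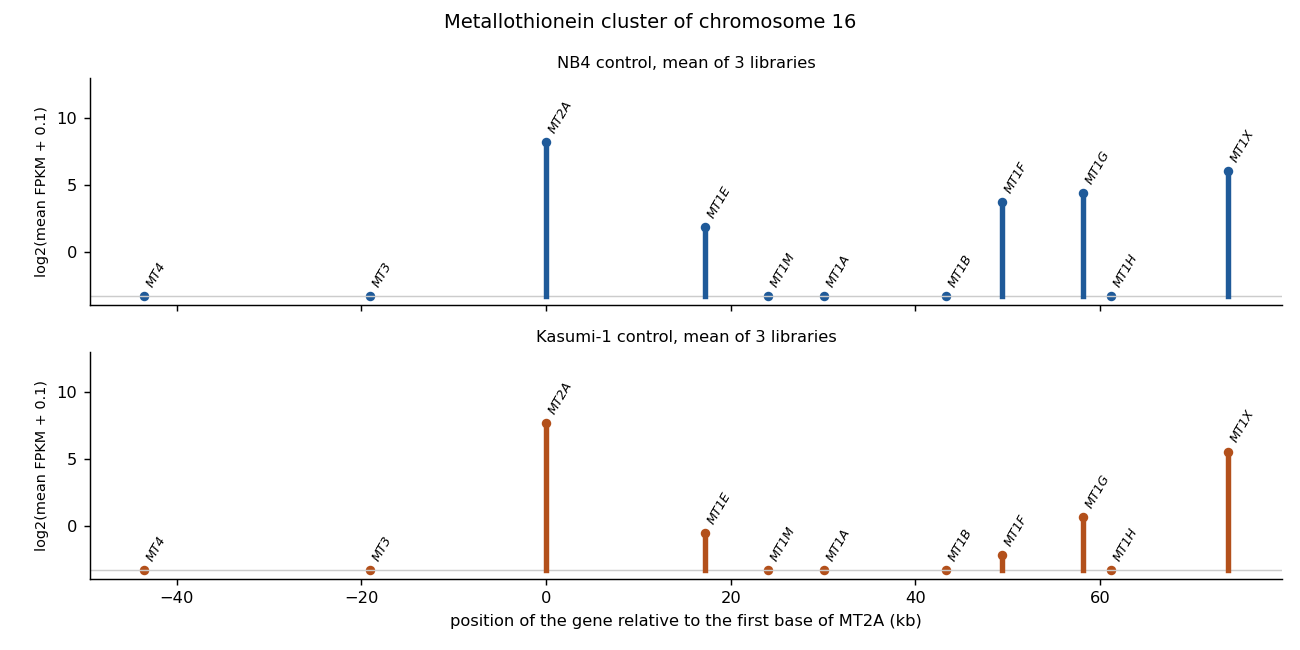
Metallothionein genes of chromosome 16 by position relative to the first base of MT2A (x axis, kb) and log2(mean FPKM + 0.1) over 3 control libraries (y axis), in NB4 (top) and Kasumi-1 (bottom). MT2A and MT1X stand high in both lines, MT1G, MT1F and MT1E stand higher in NB4 than in Kasumi-1, and 6 genes sit on the grey line that marks 0 FPKM.

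Related sequences make some of these values uncertain. Of the 50-base stretches of the longest coding transcript in GENCODE, 55.8% for MT1X also occur in AC026461.1, a gene annotated over it on the same strand. The share found in transcripts of any other gene was 14.3% for MT1G, 10.6% for MT1E, 4.88% for MT2A and 3.59% for MT1F. How the study's tools split such reads is not given in the sources used here.

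MT2A, the main metallothionein outside the MT1 group, was the most abundant of the 7 genes in every library. In NB4 control it was at 392, 124 and 367 FPKM in replicates 1, 2 and 3, and with OGP46 at 246, 85.7 and 410 FPKM. Replicate 2 was the lowest in both groups, and the groups overlapped. In Kasumi-1 control MT2A was at 208, 250 and 172 FPKM, and with OGP46 at 153, 188 and 112 FPKM. Every Kasumi-1 pair of the same number was lower with OGP46, although the groups overlapped. MT2A ranked between 91 and 514 among all genes of a library.

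MT1X was the next most abundant metallothionein. In NB4 it was at 79.5, 49.8 and 68.3 FPKM in control and at 51.0, 43.2 and 64.3 FPKM with OGP46. In Kasumi-1 control it was at 45.0, 60.7 and 35.1 FPKM, against 35.3, 29.2 and 20.2 FPKM with OGP46. Every pair of the same number was lower with OGP46 in both lines, and the groups overlapped in both. MT2A and MT1X put the 3 libraries of a group in the same order in 3 of 4 groups.

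MT1G, MT1F and MT1E, whose proteins also bind zinc, were lower than MT1X in every library. MT1G was at 24.1, 15.5 and 23.6 FPKM in NB4 control and at 14.0, 11.6 and 13.8 FPKM with OGP46, so that the highest treated library lay under the lowest control. In Kasumi-1 it was at 1.01, 3.15 and 0.224 FPKM in control and at 0.702, 0.906 and 0.428 FPKM with OGP46. The 3 Kasumi-1 controls thus spanned 14.1-fold, more than any other member in any group without a value of 0.

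MT1F was at 18.4, 9.54 and 10.5 FPKM in NB4 control and at 12.6, 8.58 and 16.7 FPKM with OGP46. In Kasumi-1 it was listed at 0, 0.175 and 0.174 FPKM in control and at 0 in all 3 OGP46 libraries. MT1E was at 5.38, 2.39 and 2.75 FPKM in NB4 control and at 2.37, 2.42 and 6.05 FPKM with OGP46. In Kasumi-1, MT1E was at 0.519, 0.666 and 0.517 FPKM in control and listed at 0, 0.221 and 0 FPKM with OGP46. Both genes overlapped between NB4 groups, and MT1E did not overlap in Kasumi-1.

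**Figure D2:**
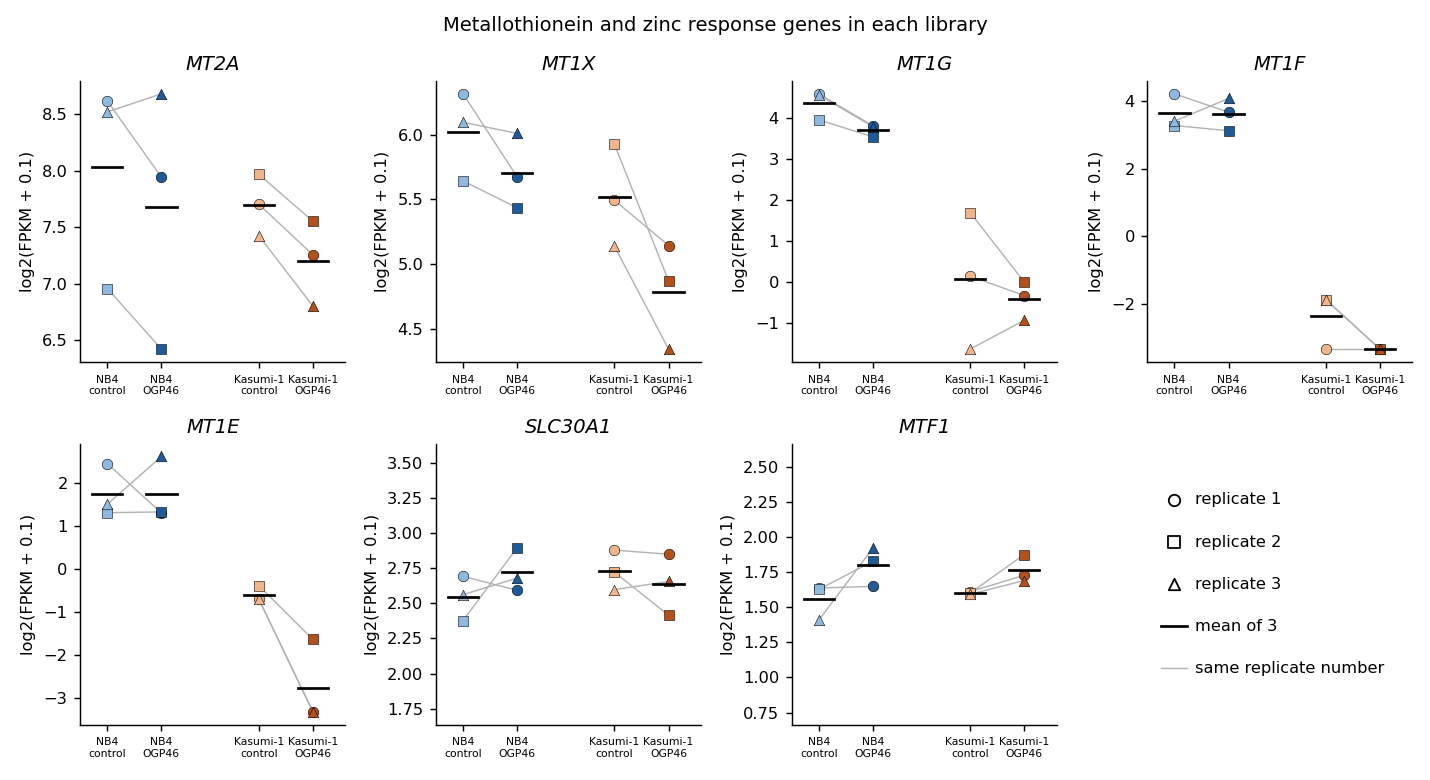
log2(FPKM + 0.1) of each gene (y axis, own range per panel) in the 12 libraries by group (x axis), with marker shape for the replicate number, grey lines joining the same number and black bars for the mean of 3. NB4 replicate 2 is low for MT2A in both groups, and MT1G in NB4 and MT1E in Kasumi-1 are lower in all OGP46 libraries than in all controls.

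The regulator MTF1 spanned at most 1.21-fold within a group and the exporter SLC30A1 at most 1.36-fold, less than most metallothioneins. With OGP46 in NB4, however, MT1G spanned 1.21-fold and SLC30A1 1.24-fold. MTF1 was at 3.01, 2.99 and 2.55 FPKM in NB4 control and 3.04, 3.45 and 3.69 FPKM with OGP46, without overlap between groups. In Kasumi-1 MTF1 was at 2.96, 2.94 and 2.92 FPKM in control and at 3.21, 3.57 and 3.13 FPKM with OGP46, again without overlap. SLC30A1 was at 6.36, 5.09 and 5.81 FPKM in NB4 control and at 5.93, 7.34 and 6.31 FPKM with OGP46. In Kasumi-1 it was at 7.25, 6.50 and 5.95 FPKM in control and at 7.11, 5.23 and 6.20 FPKM with OGP46. SLC30A1 overlapped between groups in both lines.

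The 5 metallothioneins together came to 202 to 519 FPKM in NB4 control and 151 to 510 FPKM with OGP46. In Kasumi-1 the sum was 208 to 315 FPKM in control and 132 to 218 FPKM with OGP46. MT2A made up 56.6% to 86.1% of the sum over all 12 libraries, and MT1X 12.6% to 28.5%. MT1G held 2.70% to 7.69% of the sum in NB4 and at most 1.00% in Kasumi-1. In the NB4 libraries of replicate 2 the MT2A share was 61.7% in control and 56.6% with OGP46, the lowest of their groups.

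**Figure D3:**
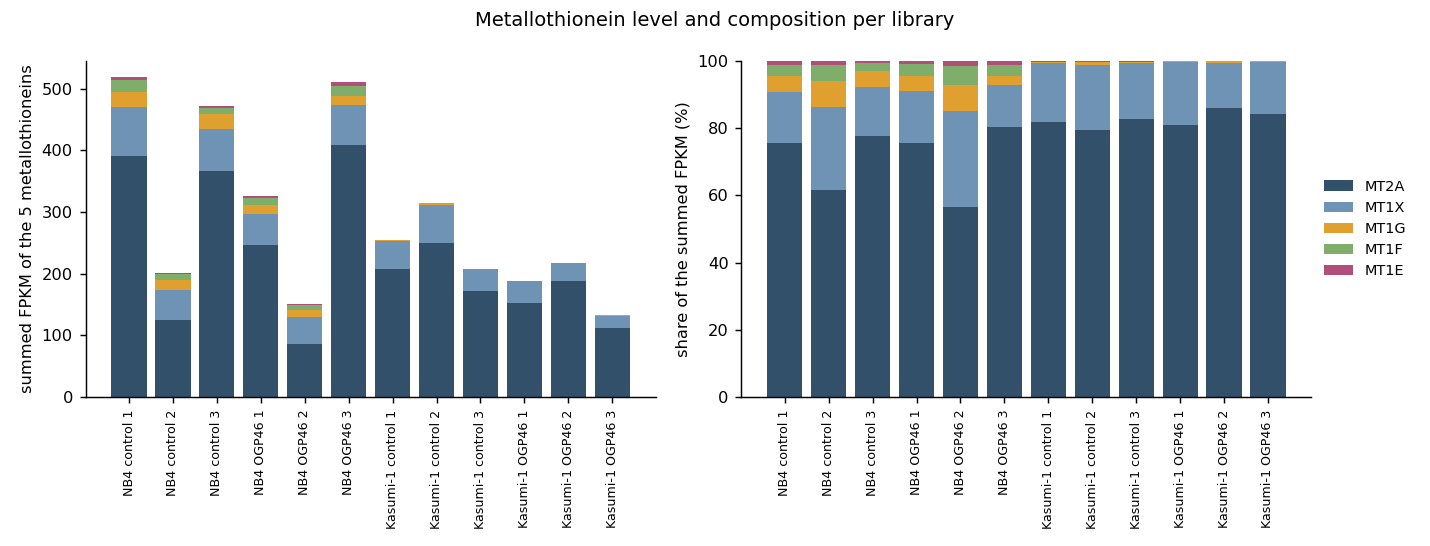
Summed FPKM of the 5 metallothioneins in each library (left y axis, bars from 0) and the share of each gene in that sum in percent (right y axis). Totals run from 132 to 519 FPKM, MT2A is the largest part of every bar, and MT1G, MT1F and MT1E are visible mainly in NB4.

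The untreated lines were compared to learn how the genes differ before treatment. MT1G, MT1F and MT1E were called higher in NB4 control than in Kasumi-1 control, whereas MT2A, MT1X, MTF1 and SLC30A1 did not pass. A gene was called when limma's adjusted p (Benjamini-Hochberg over all genes tested) was below 0.05 and the difference of log2(FPKM + 0.1) reached 0.58, or 1.49-fold. The log2 difference was 4.30 ± 0.672 (SE, limma adjusted p = 0.000349) for MT1G and 2.35 ± 0.274 (limma adjusted p = 5.3e-05) for MT1E, with 3 libraries per line. MT1F differed by 5.98 ± 0.401 (limma adjusted p = 1.5e-06), and since a Kasumi-1 control was at 0 its value depends on the pseudocount. All 3 genes were higher in every NB4 control than in every Kasumi-1 control, as 34.6% of all genes were. Among all genes, 22.7% were called higher in NB4 and 29.7% lower, so calls between the lines were common. With all libraries scaled to a common sum, the split of all calls turned from 2790 higher and 3659 lower to 3585 and 3004.

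MT2A differed between the untreated lines by 0.33 (95% interval -0.54 to 1.21, limma adjusted p = 0.451) and MT1X by 0.50 (0.02 to 0.98, limma adjusted p = 0.0589). NB4 control 2 bore on both values, and without it MT2A differed by 0.87 (limma adjusted p = 0.000489) and MT1X by 0.69 (limma adjusted p = 0.00964), and 5 of the 7 genes were called. MT1X was also called without Kasumi-1 control 2, at 0.70 (limma adjusted p = 0.0149), with all libraries scaled to a common sum, at 0.70 (limma adjusted p = 0.0106), and with medians set equal, at 0.64 (limma adjusted p = 0.0181). MTF1 differed by -0.04 (-0.29 to 0.20) and SLC30A1 by -0.19 (-0.45 to 0.07). The sign for MTF1 turned under 3 scalings and that for SLC30A1 under scaling to a common sum.

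The effect of OGP46 was tested next in NB4. Log2 differences of the 5 metallothioneins ran from -0.66 for MT1G to -0.01 for MT1F and MT1E, which were near 0 with pairs moving both ways. None of the 7 genes was called by limma between 3 control and 3 OGP46 libraries (0 of 7, against 1.56% of 11750 genes called either way and 1.45% called higher). The 170 higher and 13 lower calls of the whole table became 0 and 0 when libraries were scaled to a common sum or their medians or quantiles were set equal, 3 and 1 without limma's trend, and 4 and 0 without the filter on low values. At an unadjusted p under 0.05 and the same minimum, 1 of 7 passed, MT1G, and 1.16% of all genes passed in that direction. MT1G differed by -0.66 ± 0.171 (SE, limma adjusted p = 0.0722), and MT2A, with a wide interval, by -0.35 (-1.72 to 1.02, limma adjusted p = 0.709). The median of all genes was 0.18 in this comparison, so the metallothioneins lay further below the typical gene than below 0. With the median of each library set equal, MT1G differed by -0.88.

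Libraries of the same replicate number deviated together, and with that number as a block MT1G was called lower (limma adjusted p = 0.00111, lower in 3 of 3 pairs). It was 1 of the 7 genes, against 1.15% of all genes called lower and 5.06% called higher in this fit. With the medians also set equal, the 595 higher and 135 lower calls became 188 and 203, and MT1G was called in both. It was also called with the block when any one pair was left out, at -0.78 to -0.59, but not with the block and no filter on low values (limma adjusted p = 0.0522). MT1X passed the adjusted p with the block (0.0481 by limma) but its difference of -0.31 was under the minimum, and MT2A did not pass (limma adjusted p = 0.0664). The difference for MT2A was 0.28 without NB4 OGP46 replicate 2 alone, -0.89 without NB4 control replicate 2 alone, and -0.26 with the block and without that pair (limma adjusted p = 0.287). With the block and without pair 3, the pair in which it was higher, MT2A was called at -0.60. MT1F differed by -0.01 and MT1E by -0.01, with pairs moving both ways.

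MT1G was the only one of the 7 genes whose NB4 groups did not overlap with OGP46 lower, as 1.91% of all genes did, and MTF1 the only one with OGP46 higher, as 32.7% did. The difference for MTF1 was 0.24 ± 0.123 (limma adjusted p = 0.223) and for SLC30A1 0.18 ± 0.122 (limma adjusted p = 0.344). Both were near the median of all genes, and the sign for SLC30A1 turned when medians or quantiles were set equal. Of the 5 granule protein genes in NB4, 0 were called without the block. ELANE, PRTN3, AZU1 and CTSG were called lower with it, beside 1.15% of all genes. ELANE ranged from 0.504 to 14.5 FPKM over the NB4 controls. The part of these genes in the metallothionein values was not tested.

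**Figure D4:**
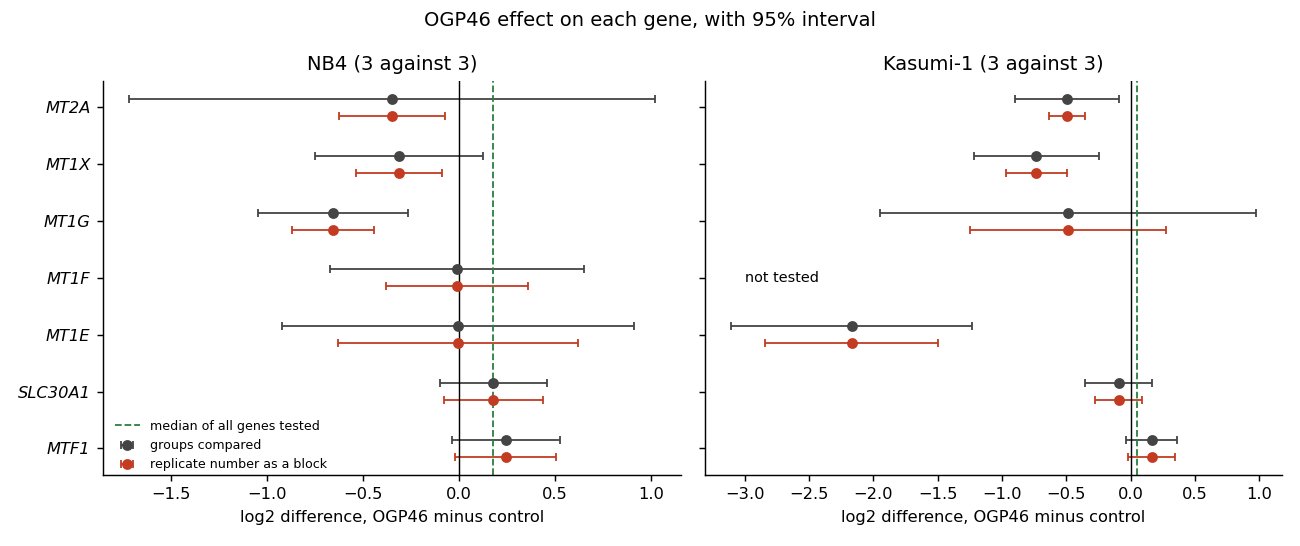
log2 difference of OGP46 minus control (x axis) with its 95% interval for each gene (y axis), in NB4 (left) and Kasumi-1 (right), for 3 against 3 libraries, without (grey) and with (red) the replicate number as a block; the dashed line is the median of all genes. The metallothioneins lie at or left of 0 in both lines, the block narrows most intervals, and MTF1 and SLC30A1 lie near the dashed line.

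In Kasumi-1 the 4 metallothioneins tested had differences of -2.17 to -0.49. None of the 6 genes tested was called without the block (0 of 6 by limma, against 0.0338% of 11835 genes), and MT1X and MT1E passed at an unadjusted p under 0.05 with the same minimum, as did 0.566% of all genes in that direction. MT1F was below the filter of 0.1 FPKM and was not tested. With the block MT1X and MT1E were called lower, as were 0.346% of all genes, with 0.270% called higher. MT1E passed the filter through its control values alone, so the 2 calls are not read as a count of members. MT1X differed by -0.73 (SE 0.107 with the block, limma adjusted p = 0.0111, and 0.164 without the block), and it was lower in 3 of 3 pairs. Without pair 2 it was -0.57 with the block, just under the minimum.

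MT1E differed by -2.17 (SE 0.302 with the block, limma adjusted p = 0.00955, and 0.0747 without the block). Because MT1E was listed at 0 in 2 of 3 OGP46 libraries, this value depends on the pseudocount, and was -0.55 at a pseudocount of 1, where it fell under the minimum also with the block, and -4.33 at 0.01. Without Kasumi-1 OGP46 replicate 2, the library not at 0, MT1E was called also without the block (-2.73, limma adjusted p = 0.0223). Its groups did not overlap, which held for 5.23% of all genes with OGP46 lower. MT2A differed by -0.49 ± 0.0613 (SE with the block, limma adjusted p = 0.00667), below the minimum of 0.58, and limma's adjusted p was 0.233 without the block. MT1G differed by -0.49 (-1.95 to 0.98), its sign turned without Kasumi-1 control replicate 2, to 0.33, and with the block it was called at -1.08 without pair 3. All block calls in Kasumi-1 were lost when limma's trend was turned off (limma adjusted p = 0.157 for MT1X and 0.143 for MT1E) and when the filter on low values was left out (0.185 for both), settings in which 0 genes of the whole table were called.

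MTF1 differed by 0.16 (-0.04 to 0.36, limma adjusted p = 0.405) in Kasumi-1, with no overlap between groups, as in 17.4% of all genes with OGP46 higher. SLC30A1 differed by -0.09 (-0.35 to 0.17, limma adjusted p = 0.735). The median of all genes was 0.05.

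Whether OGP46 acted differently in the lines was tested by the interaction of line and treatment over all 12 libraries. None of the 7 genes passed by limma (0 of 7, against 0% of 12309 genes), and 1 of 7, MT1E, had an unadjusted p under 0.05, with a larger value in NB4, as did 9.95% of all genes in that direction. With the block 1.93% of all genes passed and again 0 of the 7. MT1F passed the filter of this fit through its NB4 values, since it was listed at 0 to 0.175 FPKM in Kasumi-1. Its interaction value therefore depends on the pseudocount, and the counts out of 7 are not read as a result about the members. The largest difference was for MT1E, 2.16 (0.73 to 3.59, limma adjusted p = 0.270, and 0.0743 with the block). Its size comes from the Kasumi-1 difference of -2.17, which depends on the pseudocount, beside -0.01 in NB4. For MT2A it was 0.15 (-1.42 to 1.71) and for MT1G -0.17 (-1.97 to 1.63), so differences in either direction lie within the intervals.

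Other genes of metal transport were examined as fixed lists. The SLC30 family is known mainly, though not for every member, for moving zinc out of the cytoplasm. Of the 10 SLC30 genes, 5 were tested and 0 were called with OGP46 in either line, with or without the block. Their median difference was 0.26 in NB4 and 0.10 in Kasumi-1, beside 0.18 and 0.05 for all genes. SLC30A6, a zinc transporter of the Golgi, differed by 0.36 (limma adjusted p = 0.107) in NB4 and 0.30 (limma adjusted p = 0.109) in Kasumi-1. Of the 14 SLC39 genes, which import zinc into the cytoplasm, 11 were tested and 0 called in either line, with medians of 0.17 and 0.02. SLC39A10, a plasma membrane importer, had the largest difference of this list in both lines, 0.33 in each. The 11 copper handling genes gave 0 calls as well, with medians of 0.12 and 0.07, and the largest difference was for the copper pump ATP7A, 0.39 in NB4 and 0.35 in Kasumi-1.

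Between the untreated lines SLC30A7 (-0.78) and 4 SLC39 genes were called lower in NB4 than in Kasumi-1, 1 of 5 and 4 of 11 tested, beside 29.7% of all genes. SLC39A4, an importer known from intestinal zinc uptake, was at 1.54 ± 0.237 FPKM in NB4 and 10.1 ± 1.30 FPKM in Kasumi-1 (SD, n = 3), a log2 difference of -2.64. SLC39A13 (-1.13), SLC39A3 (-0.89) and SLC39A9 (-0.79) were the other three. No gene of either zinc list was called higher in NB4, beside 22.7% of all genes. The highest difference in the SLC39 list was 0.51, under the minimum for a call. Of the copper list 4 genes were called higher in NB4, COMMD1 (1.40), SCO1 (1.17), the SOD1 chaperone CCS (0.79) and the importer SLC31A1 (0.59), and 3 lower, SOD1 (-0.84), ATP7B (-0.74) and ATP7A (-0.73). Scaling to a common sum turned the calls among all genes from 2790 higher and 3659 lower to 3585 and 3004. SLC30A1 moved from -0.19 to 0.012 under that scaling. The calls of the zinc and copper lists given above are those without scaling, and their calls under a common sum are not given here.

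**Figure D5:**
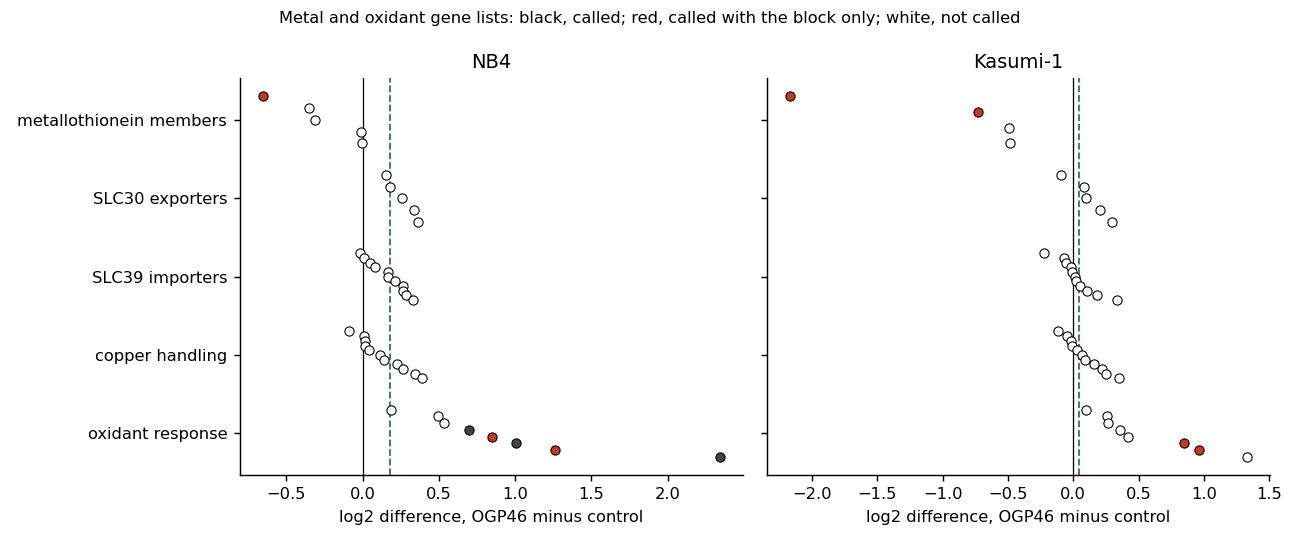
log2 difference of OGP46 minus control (x axis) for each tested gene of 5 lists (y axis) in NB4 (left) and Kasumi-1 (right), 3 against 3 libraries; black points were called, red points only with the replicate number as a block, and the dashed line is the median of all genes. Metallothioneins lie left of the dashed line, zinc and copper transport genes lie around it and oxidant response genes lie to its right.

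Of 8 oxidant response genes, which like metallothioneins respond to metals and oxidants, 3 were called higher in NB4 without the block, beside 1.45% of all genes, and 5 with it, beside 5.06%. Without the block, 0 of the 8 were called when libraries were scaled to a common sum, when medians or quantiles were set equal, without limma's trend, or without the filter on low values (HMOX1 0.0891, NQO1 0.0713 and GCLM 0.0713 as limma adjusted p). With the block, 4 were called with medians set equal and 5 without the filter. HMOX1, which degrades heme, went from 3.03 to 6.87 FPKM over the NB4 controls to 14.2 to 42.9 FPKM with OGP46, a log2 difference of 2.34 (limma adjusted p = 0.0375). NQO1, a quinone reductase, differed by 1.01 (limma adjusted p = 0.0299), and GCLM, a subunit of the enzyme that starts glutathione synthesis, by 0.70 (limma adjusted p = 0.0335). The cystine transporter gene SLC7A11 (0.85) and OSGIN1 (1.26) were called with the block only. TXNRD1 (0.50) and SRXN1 (0.53) lay under the minimum, and GCLC differed by 0.19. In Kasumi-1 0 of 8 were called, and with the block 2, beside 0.270% of all genes, NQO1 (0.85) and OSGIN1 (0.96), both lost without limma's trend or without the filter, whereas HMOX1, at 0.0839 to 0.836 FPKM, differed by 1.33 (limma adjusted p = 0.170, and 0.0690 with the block). The median over the list was 0.77 in NB4 and 0.39 in Kasumi-1.

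Genes with the most similar profile were named by Pearson's r of log2(FPKM + 0.1) over the 12 libraries, among the 9943 genes that averaged 1 FPKM or more. These values are a description, since all genes share libraries and the 2 lines differ widely. For MT2A the highest r were 0.840 (CD79B), 0.820 (ADGRA2) and 0.815 (DAP). For MT1X they were 0.891 (RTN4RL2), 0.883 (RAB5B) and 0.867 (ADARB1). Higher values were found for the genes that separate the lines, with 0.997 (PAGR1), 0.995 (TRIM22) and 0.995 (AIF1) for MT1F, 0.976 (CST7), 0.976 (SRSF9) and 0.975 (SPNS2) for MT1G, and 0.982 (RCOR2), 0.960 (ING5) and 0.957 (PRMT1) for MT1E. No metallothionein was among the 3 genes most like another.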

How the data were processed

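Values were the FPKM per gene that the authors deposited for each of 12 libraries, made from stranded poly(A)-selected mRNA libraries. The submitters' notes name Trimmomatic, HISAT2, Cufflinks and HTSeq with hg38, without versions, and the files hold FPKM but no read counts. FPKM divides by transcript length and by the library's mapped fragments, so a few abundant genes can shift all others. Of 20030 rows, 27 symbols turned into dates were left out. Groups came from the sample titles. limma 3.58.1 (R 4.3.3; lmFit and eBayes with trend) was run on log2(FPKM + 0.1) for genes averaging 0.1 FPKM or more in the samples compared, each line on its own, the untreated lines, and the interaction over 12 samples. The script was checked on simulated data. Replicate numbers were taken as pairs because deviations of same-numbered control and OGP46 samples from their group means correlated over 0.1 in all 3 pairs of each line (NB4 r = 0.608, 0.791 and 0.384 over 9513 genes, Kasumi-1 r = 0.324, 0.313 and 0.551 over 9714 genes). Some samples of unlike number also passed 0.1, with r up to 0.247 in NB4 and 0.101 in Kasumi-1. Each control correlated most with its same-numbered sample. The labels state no pairing, so the block was taken from these same data. Members and lists were chosen with earlier results of these data known. Named genes were all members, the other metallothioneins, list genes that were called or had the 3 largest differences, and the 3 genes most like each metallothionein. Alternatives were other pseudocounts, filters, scalings, moderation, weights, the block, a joint fit and leaving out each sample.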

Additional observations from a re-analysis of the deposited data

How the results depend on the processing

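The number of members called lower was 0 in each line as reported without the block. It was 1 in NB4 and 2 in Kasumi-1 with the replicate block, with the block and median centring, and at an unadjusted p. With the block, 1.15% of all genes in NB4 and 0.346% in Kasumi-1 were called lower. The Kasumi-1 block calls include MT1E, which passed the filter through its control values alone. The counts given here therefore describe dependence on the settings and are not a result about the members. Combinations of the block with another pseudocount, with no trend, with no filter or with 1 pair left out were chosen after seeing the data. With the block, pseudocounts of 1 and 0.01 gave 1 and 1 in NB4 and 1 and 2 in Kasumi-1, no trend gave 1 and 0, and no filter 0 and 0. Leaving out 1 sample or pair gave 0 to 2 in NB4, 0 to 3 in Kasumi-1 and 3 to 5 called higher in NB4 control than in Kasumi-1 control. At an unadjusted p, 1 member passed the interaction. Single values changed sign as follows, none of them past the threshold, and the cause was not tested. In NB4, SLC30A1 was -0.041 under median centring (also with the block) and quantile normalization, MT1E 0.0014 at a pseudocount of 1 (also with the block), and MT1E 0.11 and MT1F 0.054 with array weights. Leaving out 1 sample gave MT2A -0.89 to 0.28, MT1E -0.44 to 0.34 and MT1F -0.24 to 0.28, and with the block MT1E was 0.56 without pair 1 and MT1F 0.26 and 0.062 without pairs 1 and 2. In Kasumi-1 leaving out 1 sample gave MT1G -1.34 to 0.33 and SLC30A1 -0.20 to 0.020, and with the block, without pair 2, these were 0.12 and 0.014. Between the untreated lines MTF1 was 0.15 with a common sum, 0.093 under median centring, 0.18 under quantile normalization, and -0.085 to 0.030 with 1 sample left out, and SLC30A1 was 0.012 with a common sum. In the interaction MT2A was -0.00073, -0.0043 and -0.0029 and MTF1 -0.061, -0.070 and -0.080 under a common sum, median centring (also with the block) and quantile normalization, and leaving out 1 sample gave MT2A -0.39 to 0.77 and MT1G -0.98 to 0.68. The block alone changed no other call of a member. With 3 libraries a group and no read counts, low values such as MT1F and MT1E in Kasumi-1 limit what can be shown.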
